A study of Mus musculus with 9 samples.

Results

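The matrix metalloproteinases (MMP), the ADAM and ADAMTS metalloproteinases, the ADAMTS-like proteins and their tissue inhibitors (TIMP) were followed in mouse embryonic fibroblasts after transfection of synthetic viral nucleic acids. The genes were chosen by name: protein-coding genes of the GENCODE M21 annotation of GRCm38 whose symbol begins with Mmp, Timp, Adam, Adamts or Adamtsl and a digit. Applied to the 46603 gene identifiers counted, of which 21624 were protein-coding, the rule gave 82 genes. A gene without a counted identifier could not enter this set. They comprised 33 Adam, 19 Adamts, 5 Adamtsl, 21 Mmp and 4 Timp genes. Of these, 45 passed the filter on low counts and were tested, 22 had counts but did not pass, and 15 had no count in any of the 9 libraries.

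RNA sequencing was done on β-actin knockout fibroblasts of the BALB/c strain, derived from embryos of day 10.5. All 3 groups carried the knockout, mock included, and no wild-type fibroblasts are part of the comparison. The first group was transfected for 6 h with poly(I:C), which mimics viral double-stranded RNA, at 10 µg/ml, the second with poly(dA:dT), which mimics double-stranded DNA, at the same dose, and the mock group received the Lipofectamine reagent alone, all in Opti-MEM. Each group held 3 libraries, and whether these came from separate cultures is not stated in the labels. The p-values therefore reflect the variation among these libraries, which could be technical alone. The series asks how gene expression in these cells changes after the viral mimics.

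MMPs cleave collagens, other matrix proteins and many secreted signals, either from the extracellular space or tethered to the cell surface. ADAMs are membrane proteases best known as sheddases, which release the outer part of cytokines, growth factors and receptors, and ADAM17 is the enzyme that releases tumour necrosis factor. ADAMTS enzymes are secreted proteases that bind the matrix and trim proteoglycans, procollagens and microfibril proteins, and the ADAMTS-like proteins share their ancillary domains but lack the protease. TIMPs bind and block the active enzymes, and fibroblasts are a main source of all of these in connective tissue.

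The libraries held 16082772 to 22382837 gene counts after poly(I:C), 20738109 to 23185293 after poly(dA:dT), and 19826550 to 29219797 in mock. A count of 0 in a library allows up to 3 counts, which is 0.107 to 0.180 CPM (counts per 1000000 of the TMM-scaled library size), and such limits cover counting error only. The fibroblast markers Col1a1, Pdgfrb and Vim were abundant. The summed levels of 8 markers, made up mostly of Col1a1 and Vim, were 3832 to 4093 CPM after poly(I:C), 4679 to 4804 CPM after poly(dA:dT) and 5362 to 5555 CPM in mock. Col1a2 averaged only 16.5, 18.25 and 21.8 CPM, and Dcn 6.82, 6.29 and 7.84 CPM, in the poly(I:C), poly(dA:dT) and mock groups. Lum had 1 count over all libraries, and Thy1 stayed at or under 1.73 CPM on average. Markers of other cell types were low, apart from the neuronal cytoskeletal genes Tubb3 and Map2. The 6 macrophage markers summed to 2.22 to 3.66, 2.83 to 3.51 and 4.0 to 4.90 CPM in the poly(I:C), poly(dA:dT) and mock groups, with Ptprc at 0 throughout. The 5 endothelial markers summed to 4.66 to 4.83 CPM after poly(I:C), 2.74 to 3.25 CPM after poly(dA:dT) and 0.789 to 1.11 CPM in mock, with Tie1 at 0 throughout. The 5 epithelial markers summed to 2.80 to 3.01 CPM after poly(I:C), 1.39 to 1.87 CPM after poly(dA:dT) and 1.29 to 1.74 CPM in mock, and the 5 neural markers to 60.2 to 66.2, 64.0 to 66.2 and 66.3 to 71.3 CPM in these groups. The part of these shifts in the results that follow was not tested. In bulk samples, fewer cells of a type and less RNA per cell cannot be told apart.

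The proximal promoters were read first, because several MMP genes are textbook targets of AP-1, a transcription factor of the Fos and Jun families. RefSeq promoter windows (GRCm38.p6) were found for 51 of the 82 genes, and the 250 bases before each start were searched on both strands for the AP-1 letters TGANTCA, for the core of the interferon-stimulated response element (ISRE), and for the κB consensus. The AP-1 letters occurred in 11 of the 51 genes (21.6%), against 7.82% of the 27025 genes with a window. The ISRE core occurred in 1 (1.96%, against 3.46% of all genes) and the κB consensus in 3 (5.88%, against 4.46%). Of the 11 genes with AP-1 letters, 7 were among the 9 Mmp genes of the set on chromosome 9. These 7 share a cluster and so are not independent. The windows of the stromelysin genes Mmp3 and Mmp10, the macrophage elastase gene Mmp12 and the collagenase gene Mmp13 are shown as examples with the match close to a RefSeq start. Mmp7, Mmp1b, Mmp20 and Adam29 also carry it within the last 100 bases, from -63, -93, -95 and -89, and are not shown. Mmp12 has 2 windows: the one at its annotated gene start holds no match, and the one shown lies within the gene. The windows of Adamts1 and Adam17, which were called higher after poly(I:C) and hold no match, follow. Each line gives the last 100 bases before the RefSeq start, 5′ to 3′ on the gene's strand, with the AP-1 match in capitals. The intervals are chr9:7445722-7445821 (plus strand) for Mmp3, chr9:7502242-7502341 (plus) for Mmp10, chr9:7347274-7347373 (plus) for Mmp12, chr9:7272414-7272513 (plus) for Mmp13, chr16:85803114-85803213 (minus) for Adamts1 and chr12:21373633-21373732 (minus) for Adam17.
Mmp3: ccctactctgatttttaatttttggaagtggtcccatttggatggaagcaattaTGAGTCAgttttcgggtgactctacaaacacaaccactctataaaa
Mmp10: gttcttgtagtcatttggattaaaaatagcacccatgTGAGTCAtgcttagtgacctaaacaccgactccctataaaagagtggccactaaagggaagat
Mmp12: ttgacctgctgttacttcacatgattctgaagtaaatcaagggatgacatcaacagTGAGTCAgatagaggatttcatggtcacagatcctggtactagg
Mmp13: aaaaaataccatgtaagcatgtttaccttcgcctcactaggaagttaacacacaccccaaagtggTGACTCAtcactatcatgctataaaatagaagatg
Adamts1: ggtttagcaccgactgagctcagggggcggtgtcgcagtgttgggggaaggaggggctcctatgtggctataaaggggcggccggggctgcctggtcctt
Adam17: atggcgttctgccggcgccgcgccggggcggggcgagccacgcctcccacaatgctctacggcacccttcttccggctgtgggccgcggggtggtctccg

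Apart from Adam19, the genes with the AP-1 letters had few counts or none. Over the 3 libraries of a group, Mmp10 had 1, 2 and 0 counts in the poly(I:C), poly(dA:dT) and mock groups, and Mmp13 had 3, 3 and 0. Mmp12, Mmp7 and Mmp1b had 0 counts in all 9 libraries, and Mmp20 had 2, 0 and 0. The stromelysin gene Mmp3 had 2, 2 and 0 counts in the poly(I:C) libraries, 0, 2 and 3 in the poly(dA:dT) libraries, and 12, 6 and 7 in the mock libraries. Its counts were thus highest in mock, without overlap, but it did not pass the filter. Of the 11 genes with the letters, 1 was tested, Adam19. No match was found in the windows of Adamts1, Adamts18, Mmp14, Mmp24, Adam10, Adam17 or the 4 Timp genes, and Adamts4 and Adamts6 had no window in the table. A match is a description of letters and not evidence of binding.

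Among the genes with counts, the inhibitors stood at the top. Levels per kilobase of annotated exon (CPM per kilobase, 3 libraries per group) allow genes of different length to be compared. By this measure Timp2 led in every group, at 209.8 after poly(I:C), 265 after poly(dA:dT) and 329.7 in mock, where it alone held 40.2% of the summed level of the 82 genes. Timp1 came next, at 104, 108.5 and 136 in the same order of groups. The proteases Adam9, Mmp2 and Adam10 followed in mock at 75.6, 60.6 and 42.4, with Timp3 at 26.0. Mmp14, Mmp11 and Adam15 stood at 21, 20.7 and 20.5 in mock and did not differ in order beyond their spread. The leading 4 genes kept their order in all 3 groups, and Adamts1 moved up to rank 10 after poly(I:C), against rank 19 in mock.

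**Figure D1:**
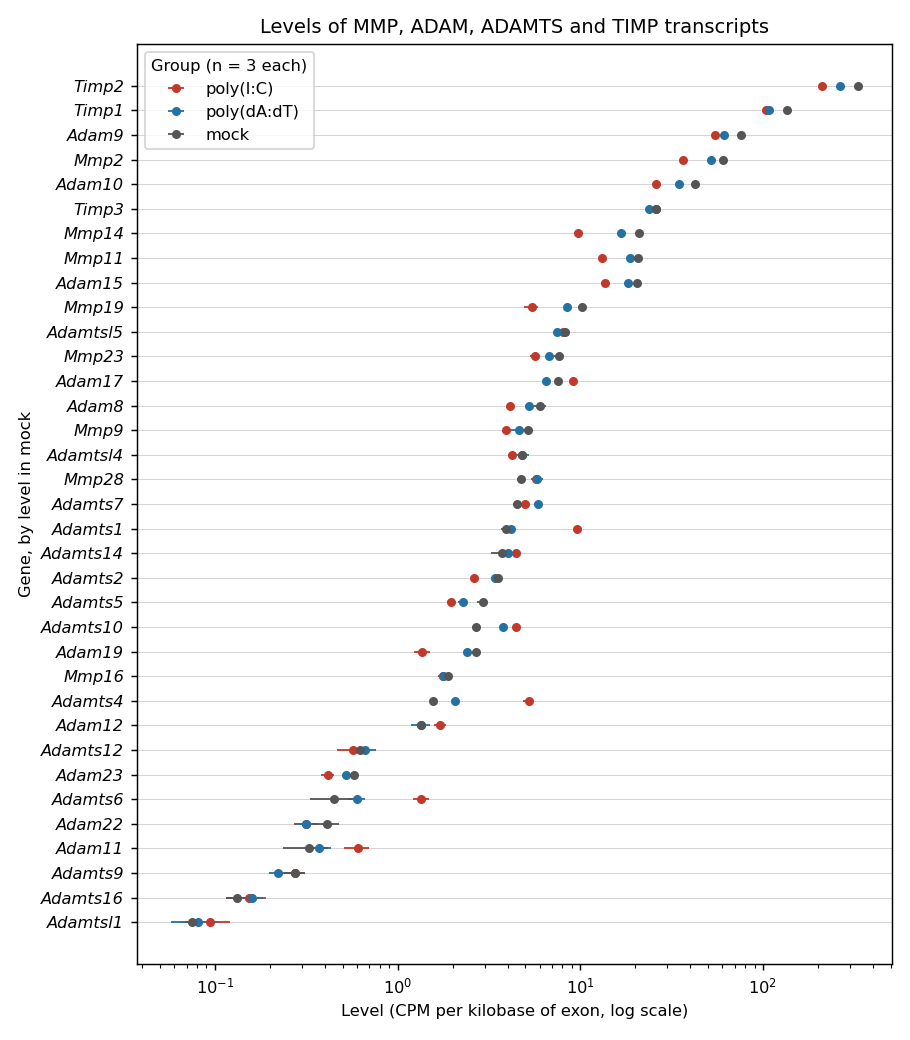
Mean level of the genes that averaged at least 1 CPM, in CPM per kilobase of exon on a log axis, with SD over 3 libraries, for poly(I:C) (red), poly(dA:dT) (blue) and mock (grey). Timp2 is highest in each group, the most abundant genes run in the order poly(I:C), poly(dA:dT), mock from left to right apart from Timp3, and Adamts1, Adamts4 and Adamts6 lie farthest right after poly(I:C).

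The genes together took a smaller share of all counts after the mimics, at 0.236% to 0.238% per library after poly(I:C), 0.267% to 0.269% after poly(dA:dT), and 0.300% in each mock library (0.2995% to 0.3001%). Summed CPM per kilobase differed by family. The Timp genes summed to 340.0 ± 3.11 after poly(I:C), 398 ± 1.76 after poly(dA:dT) and 492 ± 4.10 in mock (SD, n = 3). The Mmp genes summed to 82.2 ± 1.08, 115 ± 0.808 and 132 ± 1.25, and the Adam genes to 113 ± 0.611, 131 ± 0.322 and 158 ± 1.0, in the same order of groups. The Adamts genes ran the other way, at 36.0 ± 0.726 after poly(I:C), 27.5 ± 0.201 after poly(dA:dT) and 24.6 ± 0.331 in mock. The ratio of summed Timp to summed Mmp level was 4.18, 4.20 and 4.04 in the poly(I:C) libraries, 3.445, 3.465 and 3.452 in the poly(dA:dT) libraries, and 3.78, 3.66 and 3.72 in the mock libraries. The 3 groups did not overlap in this ratio, with poly(I:C) highest and poly(dA:dT) lowest. These sums describe the libraries and carry no test.

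Each of the 14176 genes that passed the filter was tested across the 9 libraries with edgeR's quasi-likelihood test, and a gene with a Benjamini-Hochberg adjusted p under 0.05 was called. After poly(I:C), against mock, 14 of the 45 tested genes rose, 18 fell and 13 were not called. These were 71.1% called, 31.1% higher and 40.0% lower, and over all genes tested 76.1% were called, 39.8% higher and 36.3% lower, so the shares lie near the background. At least 2-fold changes were 6 rises (13.1% of all genes) and 1 fall (1.04% of all genes). The libraries of the 2 groups did not overlap for 31 of the 45 genes, and for 76.8% of all genes.

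After poly(dA:dT), against mock, 5 rose, 16 fell and 24 were not called. These were 46.7% called, 11.1% higher and 35.6% lower, where all genes gave 52.8% called, 26.6% higher and 26.2% lower. The largest called change was the 1.40-fold rise of Adamts10, and over all genes 3.84% were called at least 2-fold higher. The libraries did not overlap for 23 of the 45 genes and for 57.3% of all genes. With total counts as the scaling 7 rose and 11 fell, a share of rises among the calls of 38.9% in place of 23.8%.

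Between the mimics, 13 genes were higher after poly(I:C) than after poly(dA:dT), 17 were lower and 15 were not called, or 66.7% called, beside 63.4% called, 31.3% higher and 32.1% lower over all genes. At least 2-fold higher were 5 genes, against 7.62% of all genes. The libraries did not overlap for 30 of the 45 genes and for 66.1% of all genes.

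The share of genes called lower differed with abundance, so the 27 genes with a mean of at least 10 CPM were also set beside the 9627 genes of that level. After poly(I:C) 8 of the 27 rose (36.7% of the 9627) and 16 fell (59.3%, against 47.8% of the 9627), and their median log2 fold change was -0.39, against -0.07. After poly(dA:dT) 4 rose (29.2% of the 9627) and 15 fell (55.6%, against 36.7%), and the median was -0.15, against -0.025. Between the mimics 6 were higher after poly(I:C) (29.9% of the 9627) and 16 were lower (59.3%, against 43.2%). Of the genes that rose after poly(I:C), Adamts18, Mmp24 and Adam32 averaged under 1 CPM in every group and passed the filter through the poly(I:C) libraries. For such genes a difference was a condition of being tested.

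**Figure D2:**
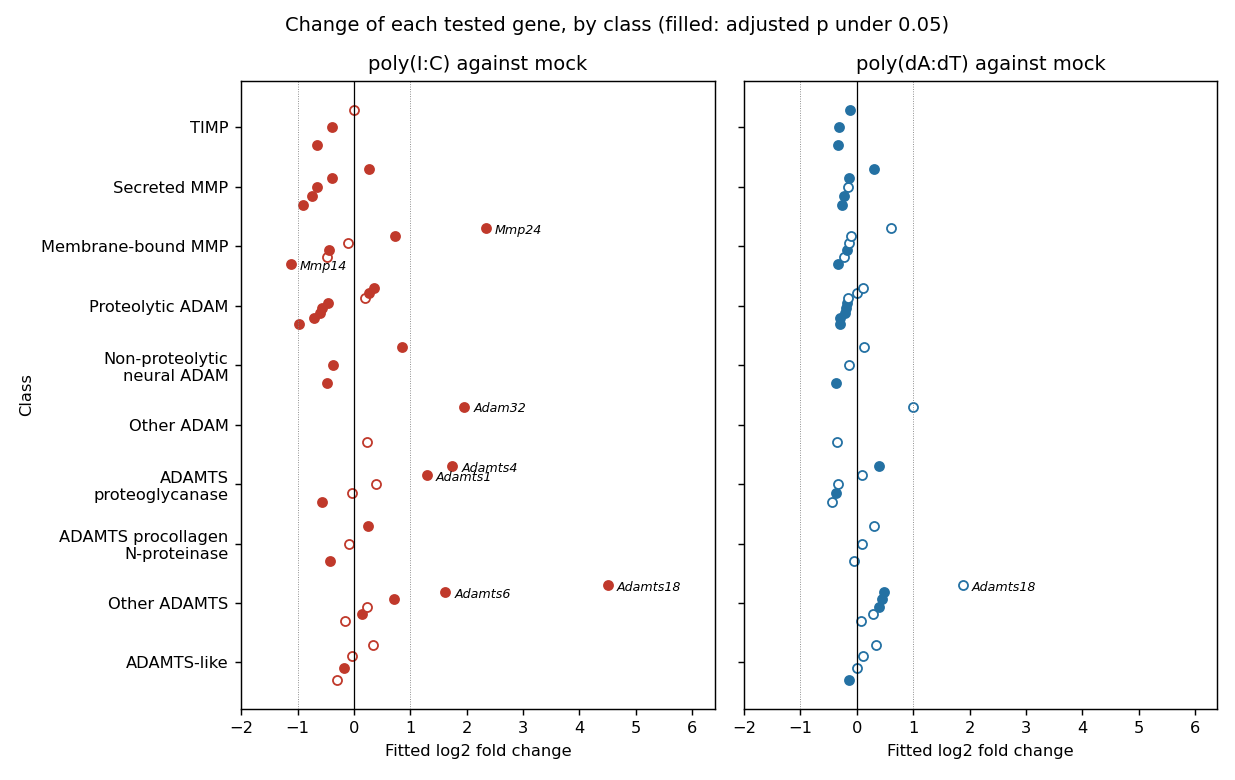
Fitted log2 fold change of each of the 45 tested genes, by class, for poly(I:C) against mock (left) and poly(dA:dT) against mock (right). Filled points passed an adjusted p of 0.05, dotted lines mark 2-fold, and genes beyond 2-fold are named: 6 of the 7 called beyond it after poly(I:C) rose, and Mmp14 fell. The named open point after poly(dA:dT), Adamts18, was not called.

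The inhibitors were considered first. Timp2 (ENSMUSG00000017466), which blocks MMPs and also helps MT1-MMP activate pro-MMP2, had 825, 820.4 and 807 CPM in the poly(I:C) libraries, 1045, 1025 and 1030.0 CPM in the poly(dA:dT) libraries, and 1289, 1274 and 1291 CPM in mock. The groups did not overlap, and poly(I:C) was lowest. The log2 fold change was -0.65 ± 0.02 (SE, edgeR adjusted p = 3.72e-76) after poly(I:C) and -0.31 ± 0.02 (adjusted p = 2.17e-37) after poly(dA:dT), and the mimics differed from each other by -0.34 ± 0.02 (adjusted p = 2.38e-40).

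Timp1 (ENSMUSG00000001131), the inducible secreted inhibitor, had 92.9, 92.9 and 91.8 CPM after poly(I:C), 94.3, 95.7 and 99.0 CPM after poly(dA:dT), and 122, 119 and 122 CPM in mock. It fell after both mimics, with log2 fold changes of -0.39 ± 0.03 (edgeR adjusted p = 2.00e-22) and -0.33 ± 0.03 (adjusted p = 1.06e-17) for poly(I:C) and poly(dA:dT). The difference between the mimics was -0.06 ± 0.03, with a 95% interval that reached 0.01 (adjusted p = 0.127). Timp3 (ENSMUSG00000020044, chromosome 10, 86300372 to 86349506, plus strand), which binds the matrix and is the main natural inhibitor of ADAM17, had 215, 208 and 212 CPM after poly(I:C), 194, 202 and 189 CPM after poly(dA:dT), and 215, 212 and 208 CPM in mock. The poly(dA:dT) libraries were lowest and the other groups overlapped. Timp3 fell slightly after poly(dA:dT), by 0.12 ± 0.03 on the log2 scale (edgeR adjusted p = 3.12e-05), and after poly(I:C) the log2 fold change was 0.00 ± 0.03 (adjusted p = 0.991). With total counts as the scaling, the poly(dA:dT) fall lost its call (-0.05, adjusted p = 0.134) and Timp3 was called higher after poly(I:C) (0.11, adjusted p = 3.71e-05). In the annotation 21.3% of Timp3 exon bases are shared with Syn3, and with the strand setting of the counting not known here, the gene to which reads from there belong is uncertain. Timp4 had 5, 2 and 1 counts after poly(I:C), 0, 5 and 1 after poly(dA:dT), and 0, 5 and 0 in mock, and was not tested.

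Of the 15 secreted MMP genes 5 were tested, all with a mean of at least 10 CPM. After poly(I:C) 4 fell and 1 rose, where 47.8% of all genes of that level fell and 36.7% rose. After poly(dA:dT) 3 fell and 1 rose, where 36.7% of all genes of that level fell and 29.2% rose. Mmp2, gelatinase A (ENSMUSG00000031740, chromosome 8, 92827291 to 92853420), had 121, 121 and 125 CPM after poly(I:C), 172, 174 and 179 CPM after poly(dA:dT), and 203, 203 and 206 CPM in mock. No groups overlapped. It fell by 0.74 ± 0.03 on the log2 scale after poly(I:C) (edgeR adjusted p = 4.20e-57) and by 0.22 ± 0.03 after poly(dA:dT) (adjusted p = 3.90e-13).

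The other secreted MMPs are named after their values were seen. Mmp11, stromelysin-3, averaged 36.4 ± 1.03 CPM after poly(I:C), 52.0 ± 1.66 CPM after poly(dA:dT) and 57.4 ± 0.95 CPM in mock (SD, n = 3). Its fall after poly(dA:dT) lost its call with total counts (-0.07, adjusted p = 0.184). Mmp19 averaged 19.2 ± 1.74, 30.0 ± 1.22 and 36.0 ± 1.67 CPM in the same order, and its 1.87-fold fall after poly(I:C) was the largest among the 5 tested genes of the class (edgeR adjusted p = 1.52e-29). Of Mmp19 exon bases 22.3% are shared with Tmem198b. Mmp9, gelatinase B, which leukocytes and activated stroma secrete, averaged 13.9 ± 0.489 CPM after poly(I:C), 16.4 ± 2.5 CPM after poly(dA:dT) and 18.4 ± 0.611 CPM in mock. It fell after poly(I:C) (log2 fold change -0.39 ± 0.08, adjusted p = 7.05e-06), while for poly(dA:dT) the value was -0.16 ± 0.08 (adjusted p = 0.0682). The poly(dA:dT) fall was called without poly(dA:dT) replicate 1 (-0.22, adjusted p = 0.0344) or 3 (-0.24, adjusted p = 0.0166). With all libraries it was called under DESeq2 size factors (-0.18, adjusted p = 0.04). Mmp28, epilysin, was the member that rose, at 22.1 ± 0.376 and 22.5 ± 1.76 CPM after poly(I:C) and poly(dA:dT), against 18.3 ± 0.811 CPM in mock (adjusted p = 0.000228 and 8.23e-05).

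Mmp14 had the largest fall after poly(I:C) among the 45 tested genes. It encodes MT1-MMP, the membrane protease that cuts fibrillar collagen at the cell surface and activates pro-MMP2 (ENSMUSG00000000957, chromosome 14, 54431612 to 54445364, plus strand). It had 59.2, 55.1 and 59.3 CPM after poly(I:C), 102, 102.5 and 96.0 CPM after poly(dA:dT), and 126, 130.4 and 119 CPM in mock. The 3 groups did not overlap. The fall was 2.17-fold after poly(I:C) (log2 fold change -1.12 ± 0.04, edgeR adjusted p = 9.57e-65) and 1.25-fold after poly(dA:dT) (-0.33 ± 0.03, adjusted p = 1.63e-16), and it differed between the mimics (-0.79 ± 0.04, adjusted p = 1.03e-44).

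The remaining 5 membrane-bound MMPs, named after their values were seen, did not follow Mmp14 together. Mmp23 fell after poly(I:C) (-0.43 ± 0.08 on the log2 scale, edgeR adjusted p = 5.43e-07), and Mmp16, MT3-MMP, was not called (-0.11 ± 0.08, adjusted p = 0.216). Mmp24, MT5-MMP, a protease best known from neurons, had 11, 22 and 16 counts after poly(I:C), 7, 6 and 3 after poly(dA:dT), and 5, 3 and 3 in mock. Its poly(I:C) counts were all higher than those of the other groups, and it was called (2.35 ± 0.50, adjusted p = 9.85e-06) at a level of 0.814 CPM. Mmp24 passed the filter through the poly(I:C) libraries, so its call and lack of overlap are not independent support for a rise. Of its exon bases 13.6% are shared with BC029722. The GPI-anchored Mmp17 was called higher after poly(I:C) at 1.35 ± 0.385 CPM, against 0.795 ± 0.235 CPM in mock (adjusted p = 0.0283). That call was lost without mock replicate 2 (adjusted p = 0.175), without poly(I:C) replicate 2 (0.064) or 3 (0.171), with DESeq2 (0.144) and without a filter (0.053). Mmp25, also GPI-anchored, was not called in any comparison.

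**Figure D3:**
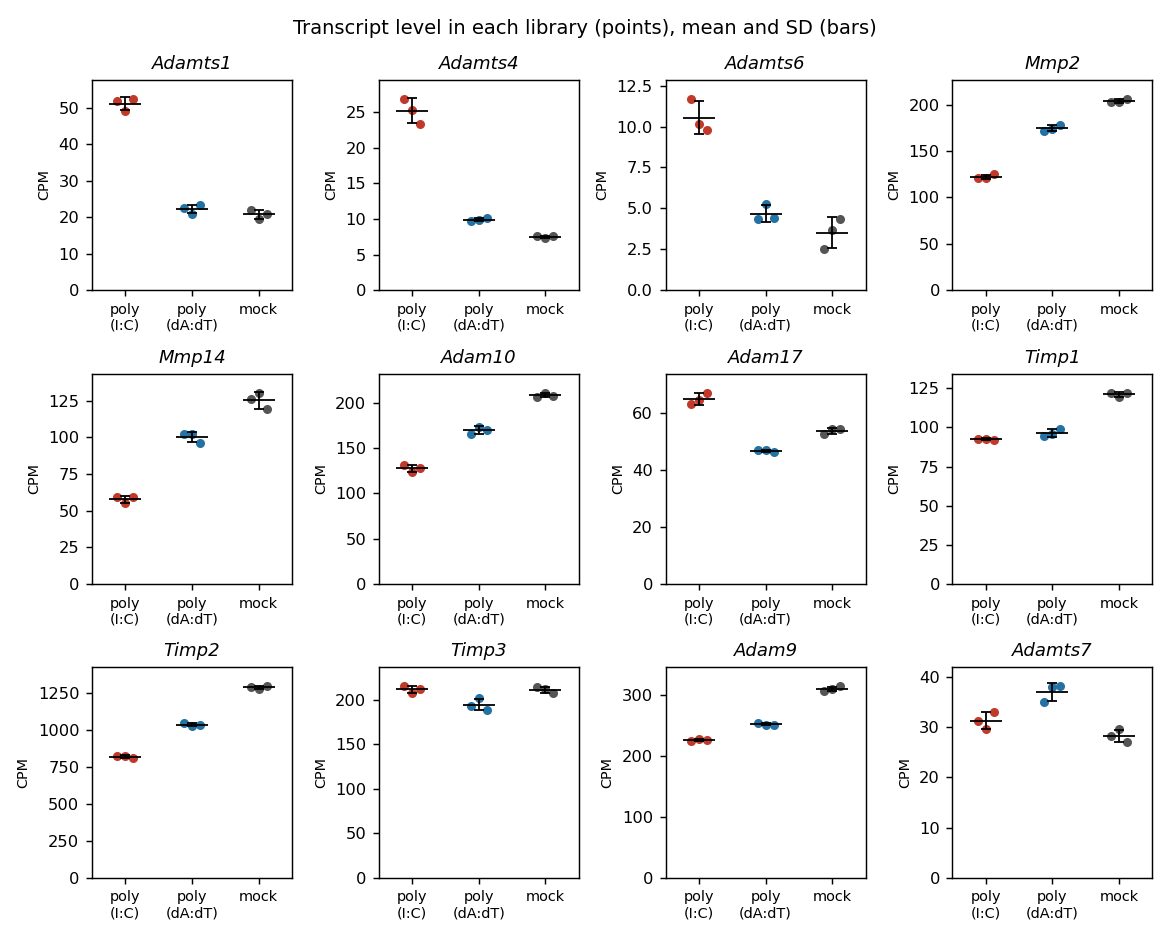
CPM in each library for 12 genes, with poly(I:C) left, poly(dA:dT) in the middle and mock right, each axis starting at 0, and bars for the mean and SD of 3 libraries. Mmp14, Mmp2, Adam10, Adam9 and Timp2 are lowest after poly(I:C) and highest in mock, Adamts1, Adamts4 and Adamts6 are highest after poly(I:C), and Adam17 is highest after poly(I:C) and lowest after poly(dA:dT).

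Among the 9 proteolytic ADAMs of somatic tissues, 8 were tested. After poly(I:C) 5 fell and 2 rose, beside 36.3% lower and 39.8% higher over all genes. After poly(dA:dT) 5 fell and the other 3 were not called, beside 26.2% lower and 26.6% higher over all genes. Of the 8, 7 averaged at least 10 CPM. Among all genes of that level 47.8% fell after poly(I:C) and 36.7% after poly(dA:dT). Adam10, the constitutive sheddase that cuts Notch receptors and cadherins (ENSMUSG00000054693, chromosome 9, 70678997 to 70780229), had 131, 124 and 128 CPM after poly(I:C), 165, 174 and 169.8 CPM after poly(dA:dT), and 206, 211 and 208 CPM in mock. The groups stood apart, lowest after poly(I:C). It fell by 0.71 ± 0.03 on the log2 scale after poly(I:C) (edgeR adjusted p = 5.06e-55) and by 0.30 ± 0.03 after poly(dA:dT) (adjusted p = 8.85e-20).

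Adam17, the tumour necrosis factor converting enzyme (ENSMUSG00000052593, chromosome 12, 21323509 to 21373632, minus strand), was called in opposite directions after the mimics. It had 63.0, 64.7 and 67.1 CPM after poly(I:C), 47.1, 46.8 and 46.2 CPM after poly(dA:dT), and 52.5, 54.3 and 54.4 CPM in mock. No groups overlapped: poly(I:C) was highest and poly(dA:dT) lowest. It rose by 0.27 ± 0.04 on the log2 scale after poly(I:C) (edgeR adjusted p = 3.70e-09), fell by 0.20 ± 0.04 after poly(dA:dT) (adjusted p = 3.56e-05), and was 1.39-fold higher after poly(I:C) than after poly(dA:dT) (adjusted p = 9.54e-20). These 3 calls held under all 17 alternatives tried.

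Adam9, the most abundant ADAM, averaged 226 ± 1.71 CPM after poly(I:C), 252 ± 1.92 CPM after poly(dA:dT) and 311 ± 3.34 CPM in mock (SD, n = 3; log2 fold changes -0.46 ± 0.02 and -0.30 ± 0.02, edgeR adjusted p = 1.10e-41 and 9.58e-25). The others of the class are named after their values were seen. Adam19, a sheddase for neuregulins, had 8.87, 10.7 and 9.54 CPM after poly(I:C), 17.6, 16.8 and 17.1 CPM after poly(dA:dT), and 18.8, 19.3 and 19.3 CPM in mock. Its 1.96-fold fall after poly(I:C) (adjusted p = 7.80e-22) was the second largest among the 45 tested genes, and after poly(dA:dT) the log2 fold change was -0.15 ± 0.07 (adjusted p = 0.0746). With DESeq2 size factors the poly(dA:dT) fall was called (-0.17, adjusted p = 0.0438). Of Adam19 exon bases 10.1% are shared with Gm16033 and Gm16034. Adam15 fell after both mimics (-0.59 ± 0.03 and -0.17 ± 0.03, adjusted p = 5.78e-38 and 1.35e-06), though 20.6% of its exon bases are shared with 4731419I09Rik. Adam8 also fell after both (-0.56 ± 0.07 and -0.22 ± 0.06, adjusted p = 6.34e-14 and 0.00177). Adam12, which is produced in growing and remodelling mesenchyme, rose after poly(I:C) to 18.1 ± 1.39 CPM, against 14.1 ± 0.500 CPM in mock (adjusted p = 2.45e-05).

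The 3 non-proteolytic ADAMs, which in the nervous system act as receptors and ligands for the LGI proteins, were expressed at low level. All 3 were tested. After poly(I:C) 1 rose and 2 fell, beside 39.8% higher and 36.3% lower over all genes. After poly(dA:dT) 1 fell and 2 were not called, beside 26.2% lower over all genes. Adam23 averaged 7.43 ± 0.635 CPM after poly(I:C), 9.36 ± 0.517 CPM after poly(dA:dT) and 10.3 ± 0.523 CPM in mock. It fell after poly(I:C) (log2 fold change -0.48 ± 0.10, edgeR adjusted p = 1.53e-05). Adam11, named after its values were seen, rose to 3.44 ± 0.537 CPM after poly(I:C), against 1.855 ± 0.514 CPM in mock (adjusted p = 3.29e-05). Adam22, also named after its values were seen, was called lower after poly(I:C) and poly(dA:dT) (-0.37 ± 0.14 and -0.36 ± 0.13, edgeR adjusted p = 0.0113 and 0.017). Both calls were lost in several alternatives, among them DESeq2 (adjusted p = 0.0551 and 0.0712) and leaving out mock replicate 3 (0.109 and 0.16). Of the 21 other Adam genes, most of which are known from testis and epididymis, 10 had no count in any library, 9 had too few to test and 2 were tested. The testis germ cell markers were likewise near 0, at no more than 0.251 CPM summed over 5 genes in any library. Adam32, named after its values were seen, had 9, 22 and 10 counts after poly(I:C), 3, 11 and 9 after poly(dA:dT), and 3, 7 and 2 in mock. It was called higher after poly(I:C) than in mock (1.96 ± 0.51, edgeR adjusted p = 0.000323). It too passed the filter through the poly(I:C) libraries, so the call is not independent support for a rise.

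The ADAMTS genes held most of the large rises. Of the 7 proteoglycanases, which cut aggrecan and versican, 5 were tested, and after poly(I:C) 2 rose, 1 fell and 2 were not called, beside 39.8% higher and 36.3% lower over all genes. Adamts4, aggrecanase-1 (ENSMUSG00000006403, chromosome 1, 171250421 to 171260637, plus strand), had 26.9, 25.3 and 23.3 CPM after poly(I:C), 9.78, 9.88 and 10.1 CPM after poly(dA:dT), and 7.59, 7.35 and 7.58 CPM in mock. The groups were separate, with poly(I:C) far above the others. It rose 3.36-fold after poly(I:C) (log2 fold change 1.75 ± 0.08, edgeR adjusted p = 4.26e-45) and 1.32-fold after poly(dA:dT) (0.40 ± 0.10, adjusted p = 0.000201).

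Adamts1 (ENSMUSG00000022893, chromosome 16, 85793827 to 85803113, minus strand), an inflammation-associated versicanase, had 51.8, 49.0 and 52.4 CPM after poly(I:C), 22.6, 20.9 and 23.2 CPM after poly(dA:dT), and 22.0, 19.5 and 20.8 CPM in mock. Only the poly(I:C) libraries stood apart, and the other groups overlapped. It rose 2.45-fold after poly(I:C) (1.29 ± 0.06, edgeR adjusted p = 1.34e-49). After poly(dA:dT) the log2 fold change was 0.09 ± 0.06 (adjusted p = 0.219), although with total counts as the scaling it was called (0.17, adjusted p = 0.0204), and the difference between the mimics was 1.2 ± 0.06 (adjusted p = 1.62e-45). Adamts5, aggrecanase-2, which lies beside Adamts1 on chromosome 16 and is named after its values were seen, went the other way, at 21.25 ± 1.0 CPM after poly(I:C), 24.6 ± 1.32 CPM after poly(dA:dT) and 31.8 ± 2.19 CPM in mock (log2 fold changes -0.57 ± 0.06 and -0.36 ± 0.06, adjusted p = 2.45e-15 and 7.58e-08). Adamts9 and Adamts15, also named after their values were seen, were not called against mock after either mimic.

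Of the 9 other ADAMTS genes 6 were tested. After poly(I:C) 4 rose, among them Adamts18, which passed the filter through the poly(I:C) libraries, and after poly(dA:dT) 3 rose, the others not being called. Over all genes 39.8% rose after poly(I:C) and 26.6% after poly(dA:dT). Adamts6 (ENSMUSG00000046169, chromosome 13, 104287835 to 104496695, plus strand), a homologue of Adamts10, had 11.7, 10.1 and 9.78 CPM after poly(I:C), 4.36, 5.26 and 4.39 CPM after poly(dA:dT), and 2.54, 3.66 and 4.37 CPM in mock. The poly(I:C) libraries were all above the rest, and the other groups overlapped. It rose 3.08-fold after poly(I:C) (1.62 ± 0.13, edgeR adjusted p = 2.81e-24). The rise after poly(dA:dT) (0.45 ± 0.15, adjusted p = 0.00634) lost its call without mock replicate 1 (0.23, adjusted p = 0.225), without poly(dA:dT) replicate 2 (0.35, adjusted p = 0.0732) and with DESeq2 (0.41, adjusted p = 0.0639).

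Adamts10, which acts on fibrillin microfibrils and is named after its values were seen, averaged 36.5 ± 0.680 CPM after poly(I:C), 31.35 ± 1.56 CPM after poly(dA:dT) and 22.3 ± 1.16 CPM in mock, and rose after both mimics (edgeR adjusted p = 3.73e-23 and 9.12e-13). Adamts7, which cleaves cartilage oligomeric matrix protein, was highest after poly(dA:dT): it had 31.2, 29.7 and 33.0 CPM after poly(I:C), 34.9, 38.0 and 38.1 CPM after poly(dA:dT), and 28.1, 29.6 and 27.1 CPM in mock. It rose after poly(dA:dT) (0.39 ± 0.06, adjusted p = 6.26e-10) and was lower after poly(I:C) than after poly(dA:dT) (-0.25 ± 0.06, adjusted p = 4.84e-05). Its smaller rise after poly(I:C) against mock (0.14 ± 0.06, adjusted p = 0.0252) lost its call in 7 of the 17 alternatives, among them without mock replicate 1 or 3 and without poly(I:C) replicate 1 or 3, where adjusted p lay between 0.056 and 0.148. Adamts18, named after its values were seen, had 18, 12 and 16 counts after poly(I:C), 0, 4 and 4 after poly(dA:dT), and 0, 0 and 2 in mock. From 46 counts after poly(I:C) against 2 in mock the ratio was 27.0, with a 95% counting interval of 7.06 to 229.6 (edgeR adjusted p = 1.29e-08). Because Adamts18 passed the filter through the poly(I:C) libraries, a difference was a condition of its being tested. After poly(dA:dT) the ratio from 8 counts was 4.22, with an interval of 0.843 to 40.8, and of the 17 alternatives it was called only without mock replicate 3 (adjusted p = 0.0237, against 0.142 with all libraries).

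The 3 procollagen N-proteinases, which trim fibrillar procollagens, were all tested. After poly(I:C) 1 fell, 1 rose and 1 was not called, beside 36.3% lower and 39.8% higher over all genes, so the class lies near the background. Adamts2 had 25.4, 23.8 and 24.5 CPM after poly(I:C), 33.9, 30.9 and 31.0 CPM after poly(dA:dT), and 34.5, 32.9 and 31.5 CPM in mock. The poly(I:C) libraries were lowest and the other groups overlapped. It fell by 0.43 ± 0.06 on the log2 scale after poly(I:C) (edgeR adjusted p = 6.47e-11), and the poly(dA:dT) value was -0.05 ± 0.06 (adjusted p = 0.455). Adamts14, named after its values were seen, rose slightly after poly(I:C) (0.24 ± 0.07, adjusted p = 0.00114). Adamts3, also named after its values were seen, was not called at 19, 28 and 24 counts in the poly(I:C), poly(dA:dT) and mock groups, and its 95% interval after poly(I:C) ran from -1.14 to 0.96 on the log2 scale. Of the 5 ADAMTS-like genes 4 were tested. Adamtsl5, the most abundant, averaged 38.1 ± 1.76 CPM after poly(I:C), 35.3 ± 0.720 CPM after poly(dA:dT) and 38.8 ± 2.60 CPM in mock, and the call of its poly(dA:dT) fall (-0.14 ± 0.05, adjusted p = 0.0158) was lost without mock replicate 2 (-0.09, adjusted p = 0.206), without poly(dA:dT) replicate 3 (-0.13, adjusted p = 0.0668) and with total counts (-0.07, adjusted p = 0.284).

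The proteins that mature, escort or restrain these enzymes were read from a list of 28 genes, of which 21 were tested. After poly(I:C) 7 rose, 13 fell and 1 was not called, and after poly(dA:dT) 5 rose, 9 fell and 7 were not called. Over all genes 76.1% were called after poly(I:C), 39.8% higher and 36.3% lower, and 52.8% after poly(dA:dT), 26.6% higher and 26.2% lower. The median log2 fold changes of the list were -0.19 and -0.09 for poly(I:C) and poly(dA:dT), beside 0.04 and 0.01 over all genes tested. Most tested genes of the list averaged at least 10 CPM. Over all genes of that level the medians were -0.07 and -0.025, with 47.8% lower after poly(I:C) and 36.7% after poly(dA:dT). Reck, a membrane-anchored inhibitor of several MMPs, had 6.89, 6.51 and 5.46 CPM after poly(I:C), 9.97, 8.73 and 10.8 CPM after poly(dA:dT), and 10.9, 14.0 and 14.4 CPM in mock. It fell after both mimics, by 1.03 ± 0.11 and 0.40 ± 0.10 on the log2 scale (edgeR adjusted p = 8.80e-17 and 0.000181).

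The partners of ADAM17 and ADAM10 are named after their values were seen. Rhbdf2, which encodes iRhom2, the escort that matures ADAM17 and brings it to the surface, averaged 80.1 ± 5.44 CPM after poly(I:C), 59.3 ± 0.316 CPM after poly(dA:dT) and 42.6 ± 0.582 CPM in mock (log2 fold changes 0.91 ± 0.04 and 0.48 ± 0.04, edgeR adjusted p = 2.59e-46 and 3.41e-19). Rhbdf1, encoding iRhom1, rose by less, at 0.30 ± 0.04 and 0.16 ± 0.04 (adjusted p = 1.18e-09 and 0.00121). Frmd8, listed with them, was not called higher: it was at -0.11 ± 0.03 after poly(I:C) and 0.03 ± 0.03 after poly(dA:dT) (adjusted p = 0.00163 and 0.437). Its poly(I:C) call was lost with total counts (0.007, adjusted p = 0.85) and with the filter of 50 counts (-0.06, adjusted p = 0.0621). With total counts Frmd8 was called higher after poly(dA:dT) (0.10, adjusted p = 0.0028). Of 5 tested tetraspanin genes whose products escort ADAM10, Tspan5, Tspan14, Tspan15 and Tspan17 fell after poly(I:C), by 0.45, 0.54, 0.19 and 0.75 on the log2 scale, beside the fall of Adam10 itself. With total counts the Tspan15 value was -0.07 (adjusted p = 0.146). Tspan33, the other of the 5, rose to 14.0 ± 1.35 CPM after poly(I:C), against 7.02 ± 0.659 CPM in mock (adjusted p = 8.49e-18). Furin, the convertase that removes the prodomain of MT1-MMP and of many ADAMs, averaged 42.9 ± 2.46 CPM after poly(I:C), 64.4 ± 3.88 CPM after poly(dA:dT) and 77.3 ± 3.88 CPM in mock (adjusted p = 1.59e-39 and 5.67e-09). Pcsk7, another proprotein convertase, went the other way, at 68.3 ± 3.34 CPM after poly(I:C), 52.5 ± 2.71 CPM after poly(dA:dT) and 46.3 ± 2.33 CPM in mock (adjusted p = 4.21e-25 and 0.000214).

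**Figure D4:**
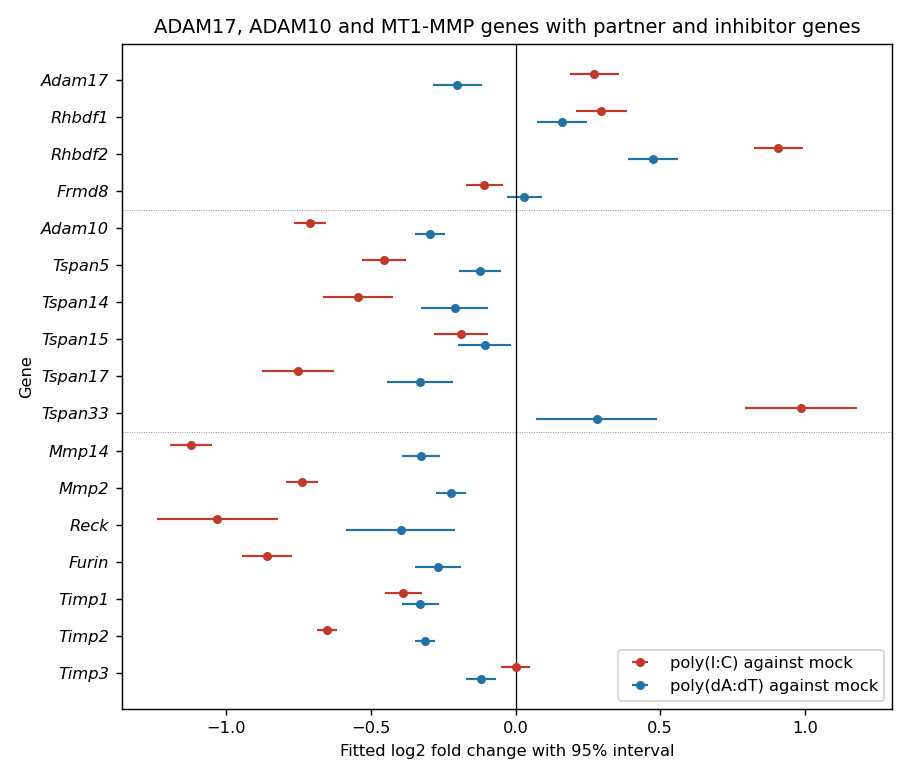
Fitted log2 fold change with 95% interval for poly(I:C) against mock (red, upper point of each pair) and poly(dA:dT) against mock (blue). From the top, Adam17 with its escort genes, Adam10 with its tetraspanin genes, and Mmp14 and Mmp2 with activator and inhibitor genes: Adam17 lies at 0.27 and -0.20, Rhbdf2 at 0.91 and 0.48, and Adam10, Mmp14, Reck and Furin below 0 for both mimics.

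The plasminogen activation genes, also named after their values were seen, changed in different directions after poly(I:C). Plat, tissue plasminogen activator, averaged 160.4 ± 3.42 CPM after poly(I:C), 105 ± 4.445 CPM after poly(dA:dT) and 110.0 ± 2.34 CPM in mock, and rose after poly(I:C) (edgeR adjusted p = 4.02e-38). Plau, urokinase, fell after poly(I:C) to 24.0 ± 0.849 CPM, with 36.7 ± 1.29 CPM after poly(dA:dT) and 34.4 ± 1.62 CPM in mock (adjusted p = 2.88e-15). Its receptor gene Plaur fell after both mimics, at 21.6 ± 1.90 and 23.1 ± 0.659 CPM, against 32.0 ± 1.73 CPM in mock (adjusted p = 1.35e-15 and 1.07e-11). Cd44, a hyaluronan receptor that can dock MMP9 and MT1-MMP, rose 1.61-fold after poly(I:C) (adjusted p = 1.69e-52).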

How the data were processed

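Each library came as 1 deposited table of whole-number counts by Ensembl identifier, not normalized by the authors. The tools named, per the submitters' processing notes, are HTSeq, DESeq2 and TopHat2 2.1.0, with build GRCm38.p4; annotation release, strand setting and multi-mapping treatment: not given in the sources used here. Per the labels' protocols, a TruSeq RNA kit was used; such kits, unless sold as stranded, do not mark strand. GENCODE M21 matched 46091 of 46603 identifiers. Tests used edgeR 4.0.16 in R 4.3.3 (quasi-likelihood, robust, two-sided, TMM scaling, filterByExpr by group, prior count 0.125), with 9 libraries in 1 fit and Benjamini-Hochberg adjustment over 14176 genes. SE was taken from the log2 fold change and the F statistic (|log2 fold change|/√F); intervals are 1.96 SE. The test was checked on simulated counts. Alternatives were DESeq2 1.42.0, 3 other scalings (DESeq2 size factors, upper quartile, total counts), no filter, a filter of 50 counts in 3 libraries, fits of the compared groups alone, a replicate block, and leaving out each library. No replicate pair agreed within sampling noise (chi-square per degree of freedom 1.64 to 2.1), and no batch is named. Per-kilobase levels used the union of annotated exons.

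The genes and lists were chosen with earlier results of these data known. Named by rule are genes called against mock with a log2 change of at least 1 and 1 CPM in a group. Also named by rule are the 4 Timp genes, Adam10, Adam17, Mmp2, Mmp14 and the most abundant of each class. Any other family member or regulator described was chosen once its values were known, also where the text does not mark it. Genes of low count given only by their counts were also chosen after these were seen. Of the genes matching the name pattern 1, and of the listed regulators 1, are not reported here.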

Additional observations from a re-analysis of the deposited data

How the results depend on the processing

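The counts of called genes stayed within 1.5 times their values in the report under all 17 alternatives. Leaving out each library in turn gave 13 to 15 rises and 16 to 18 falls for poly(I:C), 4 to 6 rises and 14 to 16 falls for poly(dA:dT), and 10 to 13 higher and 16 to 17 lower between the mimics. The other 8 alternatives gave 10 to 15 rises and 16 to 19 falls for poly(I:C), 4 to 7 rises and 11 to 19 falls for poly(dA:dT), and 10 to 15 higher and 15 to 18 lower between the mimics. Among the called values within 159 log2 fold changes of named genes, 2 changed sign, both with total counts after poly(I:C): Frmd8 at 0.007 (adjusted p = 0.85) and Lrp1 at 0.0365 (adjusted p = 0.145); the cause was not tested. Over the 159 values and the alternatives in which each was fitted, 2568 outcomes kept the call or the lack of one. A call was lost with the same sign in 93 outcomes and gained in 24. Total counts put the median log2 fold change of all genes after poly(I:C) at 0.15 in place of 0.04, and that of the 45 genes at 0.02 in place of -0.09. Same-numbered replicates did not deviate together (correlations between -0.014 and 0.023). No shared effect of the number was seen, but such values cannot show whether same-numbered samples shared a culture or day. A replicate block gave 14 rises and 18 falls for poly(I:C), 5 and 16 for poly(dA:dT), and 12 and 17 between the mimics. Depth limits the 22 untested genes with counts.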

Other observations

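Some genes outside the tested set had a few counts. Without a filter on low counts, Mmp3 was called lower after both mimics, with edgeR log2 fold changes of -2.35 (adjusted p = 0.0106) after poly(I:C) and -2.16 (adjusted p = 0.0225) after poly(dA:dT). Adamts8, an angiogenesis-inhibiting ADAMTS, had 6, 5 and 0 counts after poly(I:C), 0, 2 and 0 after poly(dA:dT) and 0 in mock. Without the filter Adamts8 was called higher after poly(I:C) (edgeR log2 fold change 4.99, adjusted p = 0.00536). Set against a limit of 3 counts over the mock group, its poly(I:C) counts gave a ratio of 4.30, and 1 poly(I:C) library had none. This ratio leaves out the counting error of the poly(I:C) counts, so it is not a lower bound. Adam1b had 7 counts over the poly(I:C) libraries and 0 in mock, a ratio of 2.74 by the same measure and with the same limit. Without the filter Adam1b was also called higher after poly(I:C) (edgeR log2 fold change 4.445, adjusted p = 0.0287). Adamtsl3 had 3, 17 and 5 counts after poly(I:C), 12, 6 and 3 after poly(dA:dT), and 4, 6 and 1 in mock, and these overlapped.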
